A study of Mus musculus with 36 samples.

Results

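Collagen chain genes were followed through 6 cell populations of the mouse thymus at 3 ages. They were taken as all genes whose single annotation symbol on the array reads Col, a number, a and a number, which gave 42 genes of the 18193 genes with a probe set of a single symbol. A probe set is the group of short probes that reports 1 transcript. Of the 42 genes, 11 code for fibrillar chains, 8 for chains of basement membranes and 23 for other types. Each gene was read from the probe set with the highest mean over all arrays. RefSeq lists 44 such symbols, and 2 of them, Col28a1 and Col6a6, had no probe set of a single symbol and were not analysed here.

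The samples were 36 arrays of RNA from thymi of male wild-type C57BL/6J mice, 2 arrays for each population at 1, 3 and 6 months of age. Thymic epithelium was represented by the cortical population, cTEC, and by 2 medullary ones labelled mTEClo and mTEChi, and the other populations were Sirpa- and Sirpa+ dendritic cells (DC) and fibroblasts. All were purified by flow cytometry after enzymatic digestion of the thymus, and none carried a transgene or a treatment according to the labels. Each label refers to 1 mouse, while the design text speaks of 2 mice at every age, so p-values measure only the spread between these samples.

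Collagens are secreted proteins in which chains wind into a triple helix. Fibrillar types I, III and V form the fibres of connective tissue and are classically made by fibroblasts. Type IV chains form the network of basement membranes, type VI forms beaded filaments at the border between cells and matrix, and other types sit on fibre surfaces or, as type XVII, in the cell membrane of epithelia. In the thymus, the capsule, the septa and the vessel walls are rich in collagen, and epithelial cells rest on basement membranes.

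The deposited values were log2 signals, with array medians between 5.61 and 5.75. Fibroblast markers such as Pdgfra and Dcn were higher in the fibroblast arrays than in epithelium for 8 of 8 genes (median log2 difference 3.73), and 6 of 6 epithelial markers such as Epcam and Foxn1 were lower there. All 6 epithelial markers were also higher in epithelium than in DC, and all 5 DC markers were lower. Thymocyte markers (Cd3e, Rag1 and others) were also higher in the fibroblast arrays than in epithelium for 13 of 13 genes (median 3.83), and their mean level ran from 8.90 to 11.1 over the fibroblast arrays. One array stood apart, the second fibroblast array at 6 months, where the mean of the fibroblast markers was 7.94 against 9.70 to 11.2 on the other 5 fibroblast arrays. Fibroblast changes with age that it moves are given with and without it. In RNA from sorted populations, fewer cells of a type and less RNA per cell cannot be told apart.

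Differences were tested with limma over the 14497 genes that exceeded the pooled median of 5.65 in at least 2 arrays, with p-values adjusted over all of them. Populations were called different when the adjusted p lay under 0.05 and the change was at least 2-fold, and a gene was called highest in a population when all 5 contrasts with the others were called. Of the collagen genes, 34 were tested: 8 fibrillar, 7 basement membrane and 19 other. The 8 that were not tested were Col10a1, Col11a1, Col11a2, Col24a1, Col26a1, Col4a3, Col6a5 and Col9a2. Col26a1 exceeded the pooled median on a single array, at 6.58 in fibroblasts of 1 month.

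**Figure D1:**
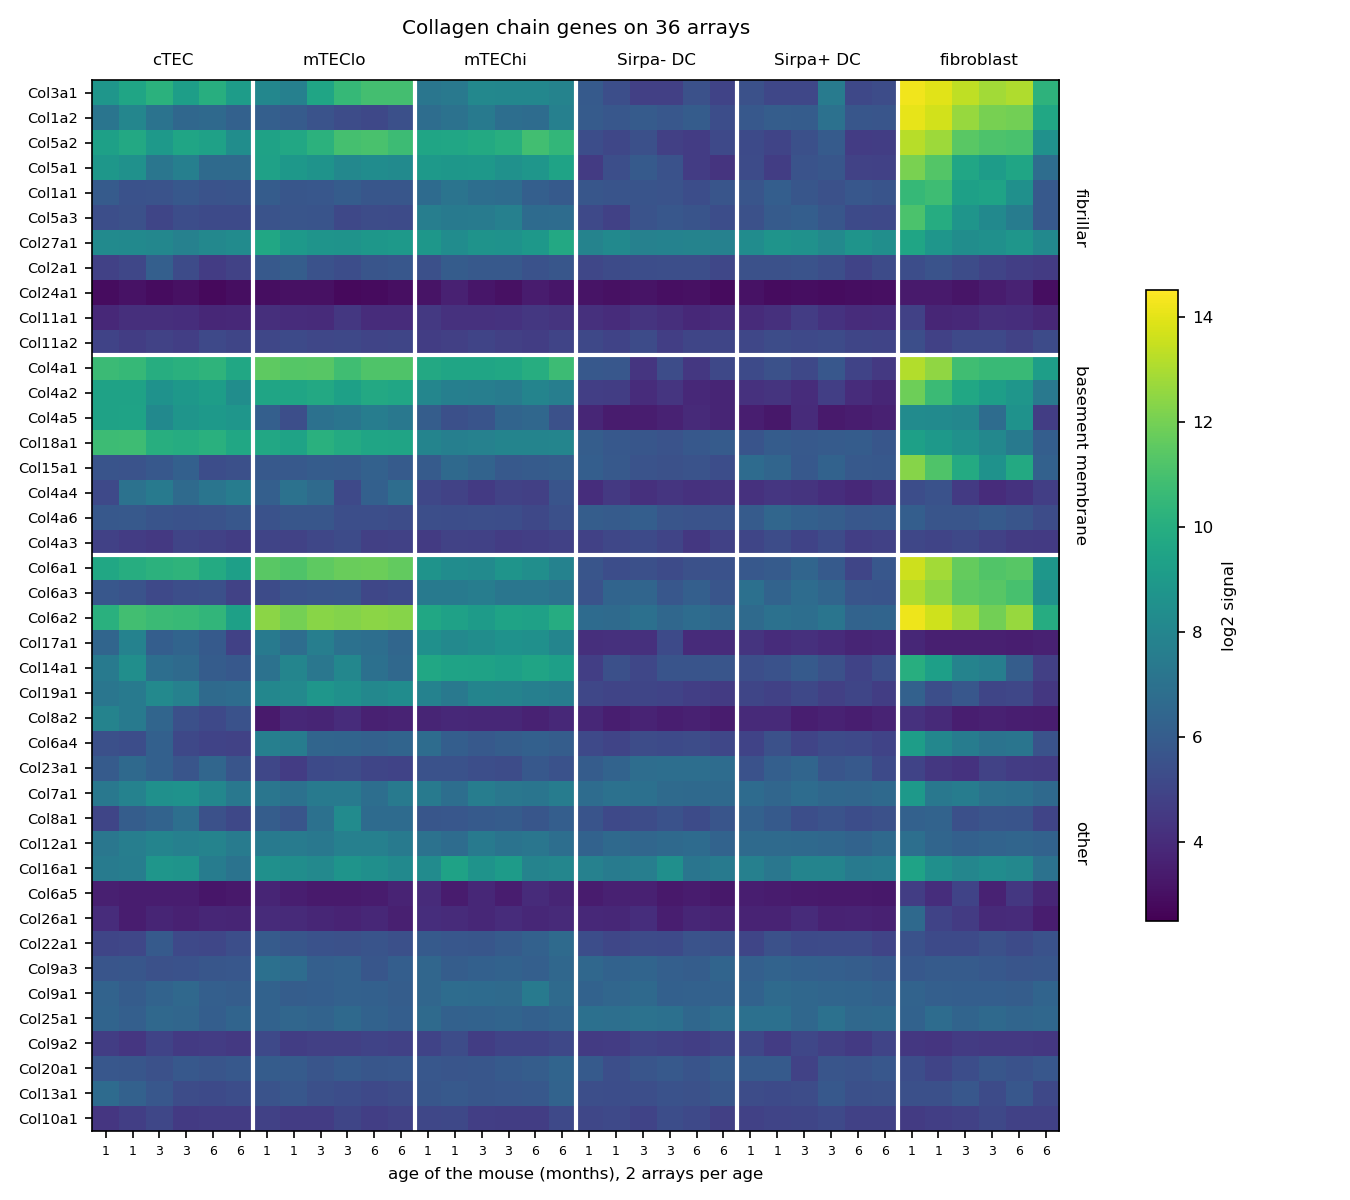
Log2 signal of the 42 collagen genes (rows, by class) on the 36 arrays (columns, by population and age in months). The fibroblast columns hold the brightest cells for the upper fibrillar genes, Col4a1 is bright in epithelium and fibroblasts, and the DC columns are dark for most genes.

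Of the 34 tested genes, 11 were called highest in 1 of the 6 populations. Fibroblasts held 7 (2.85% of all tested genes were called highest there), cTEC held 2 (1.27%) and mTEChi held 2 (6.33%). With the thymocyte marker level as a covariate fibroblasts held 4, cTEC 1, with Col4a5 lost, and mTEChi 1, with Col14a1 lost. No collagen gene was called highest in mTEClo (0.773% of genes), Sirpa- DC (0.586%) or Sirpa+ DC (1.19%). The fibroblast genes were 5 fibrillar genes, Col1a1, Col1a2, Col3a1, Col5a2 and Col5a3, with Col15a1 and Col6a3. Those of cTEC were Col4a5 and Col8a2, and those of mTEChi were Col14a1 and Col17a1. On the 1-month arrays alone 12 genes were called highest in fibroblasts, the same 7 with Col4a1, Col4a2, Col5a1, Col6a1 and Col6a2.

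The sequence before the start of a gene holds sites for the factors that drive it, so 5 of these genes with different patterns are shown with the 250 bases before their RefSeq start (build GRCm38.p6), 5′ to 3′ on the gene's strand. Capitals mark every match on either strand to 3 short motifs: the CCAAT box, the GC box with the letters GGGCGG, and the TATA motif, searched as TATAAA. Col1a2 (chr6:4505368-4505617, plus strand) and Col3a1 (chr1:45311288-45311537, plus strand) were high in fibroblasts. Col4a5 (chrX:141475169-141475418, plus strand) and Col8a2 (chr4:126286544-126286793, plus strand) were high in cTEC, and Col17a1 (chr19:47692043-47692292, minus strand) was high in mTEChi.
Col1a2: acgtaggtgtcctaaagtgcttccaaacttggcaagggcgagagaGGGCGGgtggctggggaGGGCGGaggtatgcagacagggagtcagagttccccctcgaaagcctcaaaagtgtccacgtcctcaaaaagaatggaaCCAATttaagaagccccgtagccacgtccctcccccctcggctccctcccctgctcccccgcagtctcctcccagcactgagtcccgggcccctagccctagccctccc
Col3a1: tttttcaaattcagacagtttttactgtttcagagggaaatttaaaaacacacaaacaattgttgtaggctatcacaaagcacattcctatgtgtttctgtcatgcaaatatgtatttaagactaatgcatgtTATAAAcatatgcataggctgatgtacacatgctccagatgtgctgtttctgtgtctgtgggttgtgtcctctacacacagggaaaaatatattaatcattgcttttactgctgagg
Col4a5: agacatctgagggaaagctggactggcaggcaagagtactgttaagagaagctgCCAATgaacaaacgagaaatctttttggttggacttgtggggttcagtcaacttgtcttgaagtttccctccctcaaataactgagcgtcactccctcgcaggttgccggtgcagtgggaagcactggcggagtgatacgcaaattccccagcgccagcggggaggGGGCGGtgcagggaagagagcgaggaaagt
Col8a2: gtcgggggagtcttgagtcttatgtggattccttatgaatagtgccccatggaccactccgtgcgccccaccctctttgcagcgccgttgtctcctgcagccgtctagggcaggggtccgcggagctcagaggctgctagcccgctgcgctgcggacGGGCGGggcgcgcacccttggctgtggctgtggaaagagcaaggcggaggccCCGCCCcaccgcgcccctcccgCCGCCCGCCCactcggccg
Col17a1: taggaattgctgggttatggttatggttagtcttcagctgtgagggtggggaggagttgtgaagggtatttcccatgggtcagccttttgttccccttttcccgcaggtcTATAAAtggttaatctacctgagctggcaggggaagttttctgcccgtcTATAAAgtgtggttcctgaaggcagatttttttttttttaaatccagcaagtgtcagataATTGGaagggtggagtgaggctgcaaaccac
The Col8a2 window held 4 GGGCGG matches, of which a pair overlapped, and Col17a1 held 2 TATAAA and 1 CCAAT. The window of Col6a3, a gene called highest in fibroblasts, was also searched. It held 0 matches to each motif and is not printed here. Over the 33 collagen genes with a window of this length, GGGCGG was found in 20 (60.6%, against 33% of 32536 windows in the table), CCAAT in 12 (36.4% against 33.8%) and TATAAA in 5 (15.2% against 12.3%). The collagen shares count 1 window per gene and the others all distinct windows, so they are not shares of like sets. A match describes the letters and is not a known binding site.

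Among the fibrillar chains, Col1a2, a chain of type I collagen, was measured in fibroblasts at a lowest, median and highest log2 signal of 9.66, 12.34 and 14.05. In mTEChi the same values were 6.73, 6.93 and 7.74, and in cTEC they were 6.21, 6.84 and 7.99. All 6 fibroblast arrays lay above every other array. The fibroblast mean exceeded that of mTEChi 37.8-fold (adjusted p = 7.99e-15).

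Col1a1, the other type I chain, ranged from 5.84 to 10.79 in fibroblasts (median 9.38), and the lowest of these values came from the array that stood apart. Its next highest population was mTEChi, at 5.91, 6.73 and 7.12, and every other population stayed at or below 6.08. The fibroblast mean was 5.67-fold that of mTEChi (adjusted p = 2.21e-09), although the groups overlapped through that 1 array.

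Col3a1, the chain of type III collagen, was measured in epithelium too. Its lowest, median and highest signals were 10.27, 13.20 and 14.25 in fibroblasts, 7.71, 10.05 and 10.93 in mTEClo, and 8.80, 9.39 and 10.16 in cTEC. In Sirpa- DC they were 4.76, 5.14 and 5.91. The fibroblast mean was 10.1-fold that of mTEClo (adjusted p = 1.37e-08), while cTEC and mTEClo differed by -0.14 ± 0.36 (log2, SE; adjusted p = 0.82). The lowest fibroblast array lay below the highest mTEClo arrays.

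The type V chains, which join type I and III fibres, differed from each other in the epithelium. Col5a2 was measured at 9.40, 10.46 and 11.04 in mTEClo and at 8.58, 11.29 and 13.22 in fibroblasts, a 2.03-fold difference of the means (adjusted p = 0.00215) between groups that overlapped. Col5a3 stayed between 5.03 and 5.68 in cTEC and mTEClo and reached 6.67, 7.49 and 7.73 in mTEChi, and its fibroblast mean was 2.43-fold that of mTEChi (adjusted p = 6.04e-06). Col5a1 was measured at 8.57, 8.87 and 9.48 in mTEChi, near mTEClo (8.12, 8.50 and 9.35; adjusted p = 0.345), and it was called highest in no population. The fibrillar genes Col2a1 and Col27a1 had population means of 5.08 to 5.72 and 7.88 to 8.98.

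**Figure D2:**
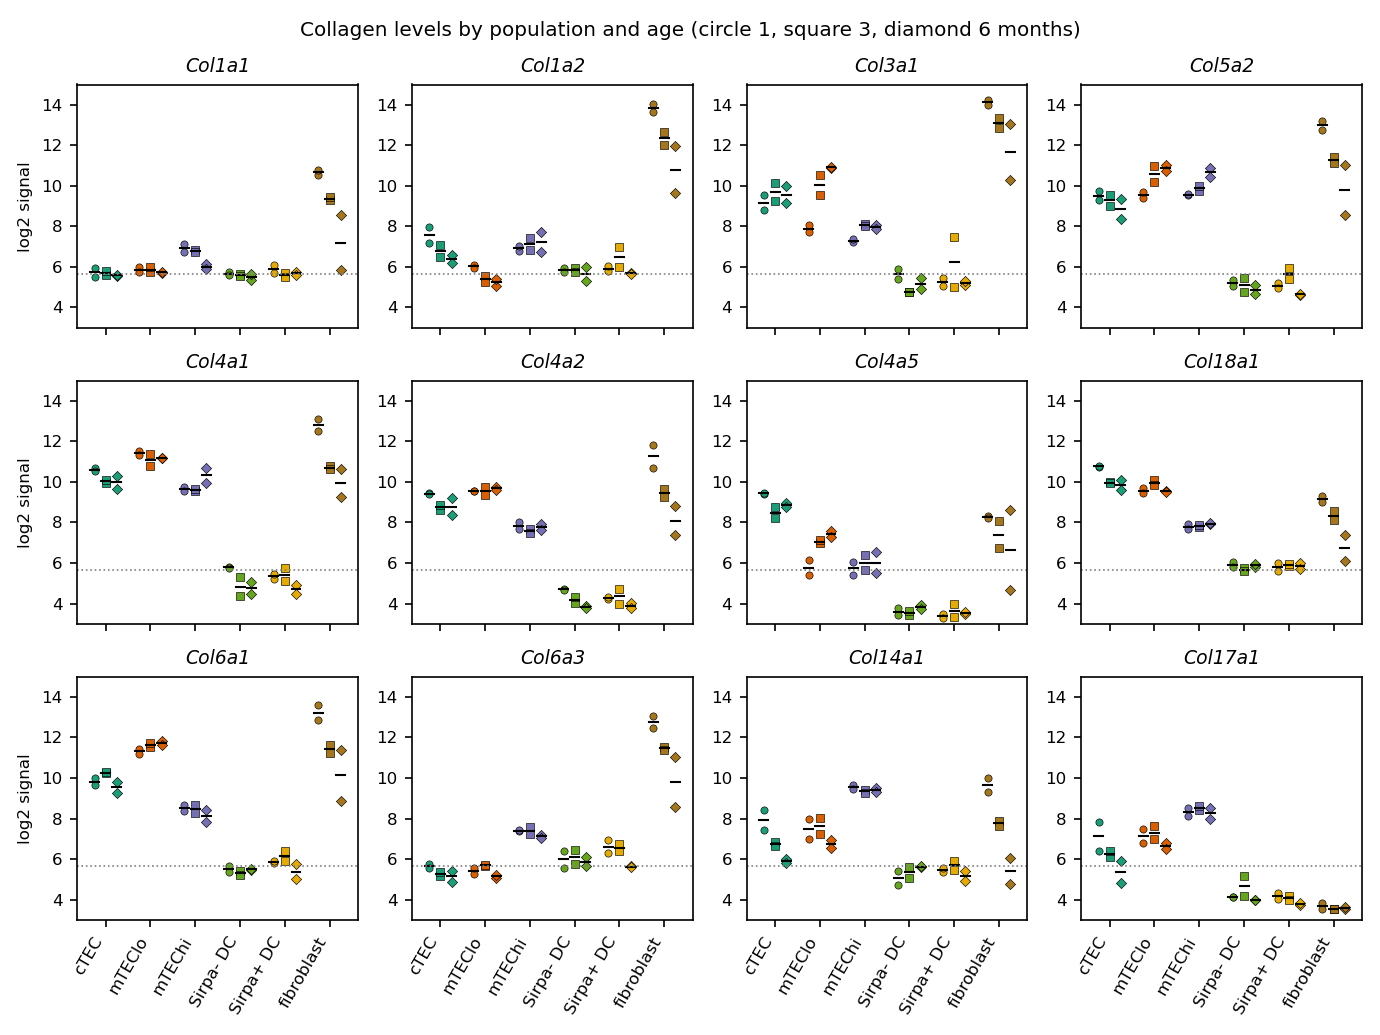
Log2 signal of 12 collagen genes on every array, by population and age (circle 1, square 3, diamond 6 months). Short bars are the means of 2 arrays and the dotted line is the pooled median of 5.65. In fibroblasts most genes lie lower at 3 and 6 months than at 1 month, and 1 array of 6 months lies far below its partner.

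The basement membrane genes Col4a1 and Col4a2 were high in both epithelium and fibroblasts. Col4a1, with Col4a2 the common chain pair of type IV collagen, had a lowest, median and highest signal of 10.80, 11.25 and 11.53 in mTEClo, 9.24, 10.71 and 13.11 in fibroblasts, and 9.66, 10.20 and 10.67 in cTEC. The mTEClo and fibroblast means over the 3 ages differed by 0.08 ± 0.21 (adjusted p = 0.759), while at 1 month the fibroblast arrays, at 13.11 and 12.52, lay above the mTEClo arrays, at 11.53 and 11.32. In both DC populations Col4a1 was at or below 5.83, under every epithelial and fibroblast array. Col4a2 followed with means of 9.59 ± 0.15 (SD, n = 6) in mTEClo, 9.59 ± 1.54 in fibroblasts, 8.99 ± 0.43 in cTEC and 7.73 ± 0.19 in mTEChi.

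The other type IV pairs did not move together in this way. Col4a5 was highest in cTEC at 8.21, 8.86 and 9.45, above mTEClo (5.39, 7.06 and 7.60) and mTEChi (5.42, 5.84 and 6.52) without overlap. The cTEC mean was 2.81-fold that of fibroblasts (adjusted p = 0.00188), where the array that stood apart read 4.66. Without that array Col4a5 was no longer called highest in cTEC. Its partner Col4a6 had means of only 5.33 to 6.03 in the 6 populations, and Col4a3 stayed at or below 5.30 on every array. Col4a4 reached 5.14, 7.09 and 7.52 in cTEC and 5.15, 6.42 and 7.01 in mTEClo, against a mean of 4.95 ± 0.38 in mTEChi. Its highest array was 5.63 in mTEChi and 5.51 in fibroblasts, and DC lay lower still. Col4a4 thus passed the filter through cTEC and mTEClo alone, which partly set its differences from the other populations in advance.

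In the genome no other protein-coding gene lies between the members of each of these 3 pairs. RefSeq's windows place the starts of Col4a1 (minus strand) and Col4a2 (plus strand) 21 bases apart, so that the 5′ ends of their transcripts overlap by 22 bases at chr8:11312805-11312826 (GRCm38.p6). The starts of Col4a6 and Col4a5 lie 1343 bases apart, and their windows do not overlap.

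Col15a1 and Col18a1 code for the 2 chains that sit in the outer zone of basement membranes. Col15a1 was measured in fibroblasts at 6.23, 9.82 and 12.32, with the array that stood apart at the bottom, and its mean was 11.4-fold that of Sirpa+ DC, the next population (adjusted p = 3.28e-09). Col18a1, the source of endostatin, was measured at 9.63, 10.05 and 10.78 in cTEC, 9.47, 9.63 and 10.11 in mTEClo, 7.66, 7.90 and 7.95 in mTEChi and 6.09, 8.33 and 9.32 in fibroblasts, so that all cTEC and mTEClo arrays lay above every fibroblast array.

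Of the type VI chains, Col6a1 and Col6a2 were high in mTEClo as well as in fibroblasts, and Col6a3 was not. Col6a1 was measured at 11.21, 11.56 and 11.81 in mTEClo and 8.86, 11.52 and 13.59 in fibroblasts (difference of the means -0.04 ± 0.26, adjusted p = 0.904), against 7.84, 8.38 and 8.69 in mTEChi. At 1 month its fibroblast arrays read 13.59 and 12.85 and its mTEClo arrays 11.44 and 11.21. Col6a2 was at 12.01, 12.34 and 12.43 in mTEClo and 9.95, 12.76 and 14.18 in fibroblasts (adjusted p = 0.497), and at 1 month at 12.43 and 12.01 against 14.18 and 13.64. Col6a3, the third chain that classical type VI needs, stayed at 5.07, 5.42 and 5.72 in mTEClo and 4.85, 5.41 and 5.75 in cTEC, was 7.05, 7.32 and 7.57 in mTEChi, and reached 8.57, 11.46 and 13.08 in fibroblasts. Its lowest fibroblast array lay above all arrays of the other populations, and the fibroblast mean was 16.3-fold that of mTEChi (adjusted p = 4.15e-13).

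Among the remaining types, Col17a1, the transmembrane collagen of hemidesmosomes, and Col14a1, which coats fibre surfaces, were highest in mTEChi. Col17a1 was at 7.97, 8.46 and 8.59 in mTEChi, 6.48, 6.90 and 7.63 in mTEClo and 4.83, 6.24 and 7.81 in cTEC. In fibroblasts it stayed between 3.51 and 3.85, below every epithelial array and under the pooled median. In DC it reached at most 5.17, so the gene passed the filter through epithelium alone. This partly set its differences from fibroblasts and DC in advance. Col14a1 was at 9.28, 9.43 and 9.66 in mTEChi, which was 3.55-fold the mean of fibroblasts (4.76, 7.77 and 10.01; adjusted p = 6.02e-08). At 1 month alone the fibroblast arrays read 10.01 and 9.30 and the mTEChi arrays 9.66 and 9.46, and Col14a1 was then not called highest in mTEChi.

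Col8a2, a short network-forming chain, was measured at 5.15, 5.97 and 7.86 in cTEC. Every array of the other 5 populations lay at or below 4.23, under the pooled median. The gene passed the filter through cTEC alone, so that it had to differ there. Col19a1 had means of 7.33 ± 0.58 in cTEC, 8.33 ± 0.30 in mTEClo and 7.69 ± 0.22 in mTEChi against 5.31 ± 0.62 in fibroblasts and 4.89 or less in DC (SD, n = 6).

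Against the 3 epithelial populations together, fibroblasts had 11 collagen genes higher (8.68% of all genes were called higher) and 4 lower (13.7%). Of the 8 fibrillar genes 6 were higher and 0 lower, of the 7 basement membrane genes 1 was higher and 2 lower, and of the 19 others 4 were higher and 2 lower. The differences ran from 5.80 ± 0.22 for Col1a2 (log2, SE; adjusted p = 2.3e-17) and 5.31 ± 0.21 for Col6a3 down to 1.35 for Col6a4. The 4 lower genes were Col17a1 (-3.60 ± 0.17, adjusted p = 2.17e-15), Col19a1 (-2.48 ± 0.12), Col4a4 (-1.29) and Col18a1 (-1.17). Col18a1 was not called without the array that stood apart. Col17a1 passed the filter through epithelial arrays alone and Col4a4 through cTEC and mTEClo alone, so their places were partly set in advance. The median over the tested collagens was 0.01 and that over all genes -0.03. Mural markers, genes of pericytes and smooth muscle, were higher in fibroblasts for 7 of 10 genes (median 1.62). With the thymocyte marker level as a covariate, 4 genes were still called highest in fibroblasts, Col15a1, Col1a2, Col5a3 and Col6a3, and Col17a1 was still called lower there than in epithelium.

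Epithelium against DC gave 13 collagen genes higher (15.9% of all genes) and 0 lower (8.60%). Among the basement membrane genes 5 of 7 were higher, among the fibrillar genes 3 of 8 and among the others 5 of 19. The 13 include Col17a1 and Col4a4, which passed the filter through epithelial arrays alone, so their direction was partly set in advance. Col4a1 led with 5.29 ± 0.13 (adjusted p = 1.74e-21), before Col5a2 at 4.77 ± 0.17 and Col4a2 at 4.56 ± 0.13, and all arrays of the 3 epithelial populations lay above all DC arrays for each of them. The median over the 34 genes was 0.73, against 0.01 over all genes. In the same contrast 2 of 8 fibroblast markers, Dcn (4.23) and Pdgfrb (2.77), and 5 of 10 mural markers were higher in epithelium (list medians 0.38 and 1.16). The mural level ran from 6.99 to 8.52 on the epithelial arrays and from 5.85 to 6.29 on the DC arrays, and its part in the result was not tested. Between Sirpa+ and Sirpa- DC, limma called no collagen gene higher (3.87% of genes) or lower (1.50%). An unadjusted p under 0.05 was passed by 2, and the share of all genes that passed it is not given here.

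Within the medulla, mTEChi and mTEClo differed in 12 collagen genes, 5 higher in mTEChi (11.8% of all genes were higher) and 7 lower (7.81%). The largest differences were in Col6a1, at 11.44, 11.21, 11.52, 11.74, 11.81 and 11.60 on the 6 mTEClo arrays and 8.66, 8.36, 8.25, 8.69, 8.41 and 7.84 on the mTEChi arrays. The groups did not overlap, and mTEChi was 9.10-fold lower (-3.19 ± 0.26, adjusted p = 1.39e-10). Col6a2 was 7.09-fold lower (-2.82 ± 0.29), followed by Col4a2 (-1.86 ± 0.20), Col18a1 (-1.84 ± 0.15), Col3a1 (-1.84 ± 0.36), Col4a1 (-1.37 ± 0.21) and Col4a4 (-1.37 ± 0.26). Of these 7, only Col3a1 and Col4a4 had overlapping arrays. Because Col4a4 stayed under the pooled median on every mTEChi array, the filter partly set its difference in advance.

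The 5 genes higher in mTEChi were Col14a1 (2.13 ± 0.22, adjusted p = 8.03e-09), Col6a3 (1.90 ± 0.26), Col5a3 (1.87 ± 0.21), Col1a2 (1.53 ± 0.27) and Col17a1 (1.33 ± 0.21), and none of them overlapped between the populations. Type VI chains thus moved in both directions, with Col6a3 higher and Col6a1 and Col6a2 lower. By class, 4 of 7 basement membrane genes were lower and 0 higher, while 2 of 8 fibrillar genes were higher and 1 lower. The median was 0.01 over the collagens and -0.04 over all genes. The share of all genes whose arrays did not overlap between mTEChi and mTEClo is not given here.

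Markers of other cells in the same contrast were as follows. Macrophage markers were higher in mTEChi for 6 of 6 genes (median 1.80), with group means of their level of 7.29 to 7.78 in mTEChi and 5.48 to 5.54 in mTEClo. Mural markers were lower in mTEChi for 4 of 10 genes (median -0.52), and the level of these markers ran from 7.36 to 7.51 on the mTEChi arrays and from 8.15 to 8.52 on the mTEClo arrays. Fibroblast markers were higher for 2 of 8 and lower for 1 (median -0.23). The part of macrophage and mural cells in the collagen differences was not tested. Endothelial markers were higher for 2 of 8 tested genes (median 0.76), with a level of 6.14 to 6.27 on the mTEChi arrays and 5.38 to 5.71 on the mTEClo arrays. Mesothelial markers were higher for 1 of 2 (median 1.09), cartilage markers higher for 1 of 3 and lower for 1, and the part of these cells was not tested either. Thymocyte markers were higher for 1 of 13 (median -0.10), and the same 5 and 7 collagen genes were called with that level as a covariate.

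**Figure D3:**
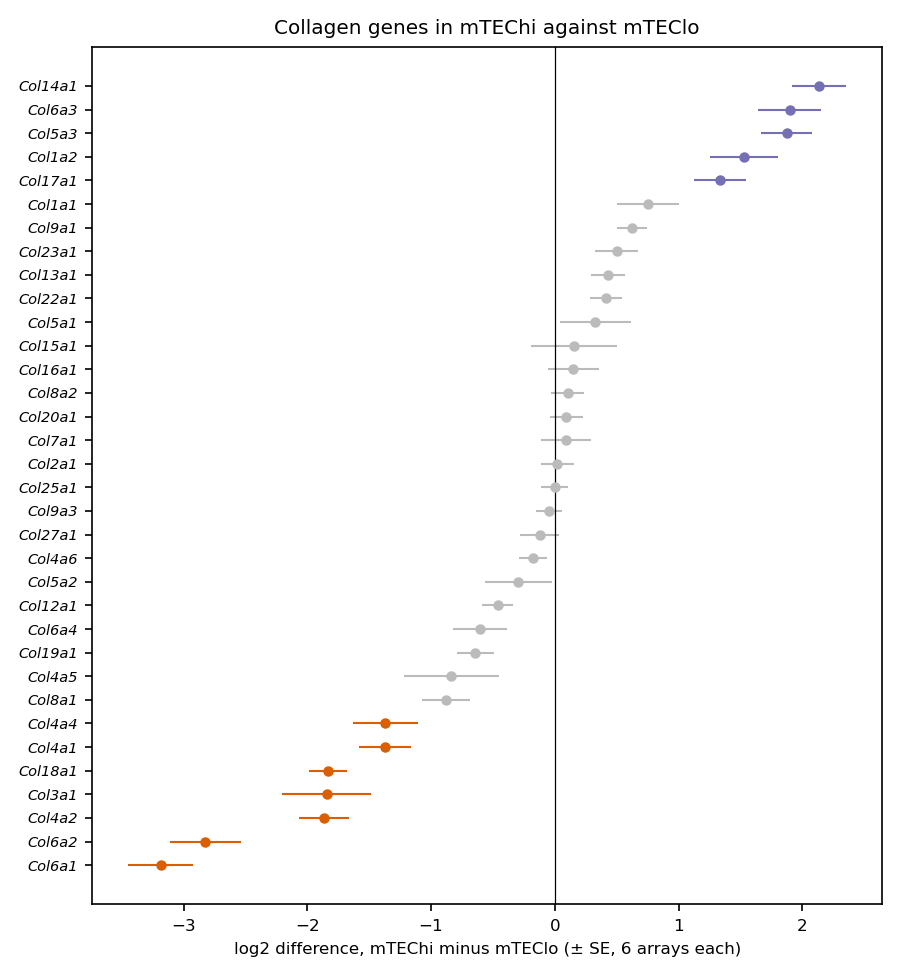
Log2 difference between mTEChi and mTEClo (x axis, ± SE, 6 arrays in each) for the 34 tested collagen genes (y axis). The 5 genes called higher are in purple, the 7 called lower in orange and the rest in grey, from Col14a1 at 2.13 to Col6a1 at -3.19.

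Against both medullary populations together, cTEC had 4 collagen genes higher (5.40% of all genes) and 6 lower (8.24%). The higher genes were Col4a5 (2.59 ± 0.33, adjusted p = 4.23e-07), Col8a2 (2.55 ± 0.12), Col18a1 (1.42 ± 0.13) and Col4a4 (1.19 ± 0.23), 3 of which code for basement membrane chains. Col8a2 passed the filter through cTEC alone, and Col4a4 through cTEC and mTEClo alone. The lower ones were Col14a1 (-1.51 ± 0.19), Col17a1 (-1.45 ± 0.18), Col5a1 (-1.18), Col6a4 (-1.16), Col5a3 (-1.08) and Col6a3 (-1.004). The collagen median was -0.36, and that of all genes was -0.02. Thymocyte markers were higher in cTEC for 9 of 13 genes (median 1.91), and with their level as a covariate only Col14a1 of the 6 was still called lower, while Col4a5, Col8a2 and Col18a1 were still called higher.

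Ages were compared within each population, 3 or 6 months against 1 month, with calls at an adjusted p under 0.05 without a minimum fold. In cTEC, 6 collagen genes were lower at 6 months (3.74% of all genes) and 0 higher (2.71%). Col8a2 read 7.86 and 7.43 at 1 month, 6.43 and 5.45 at 3 months, and 5.15 and 5.51 at 6 months, a fall of 2.31 ± 0.23 (adjusted p = 8.44e-07). Its arrays did not overlap between 1 and 3 months (a fall of 1.70 ± 0.23, adjusted p = 6.17e-05), nor between 1 and 6 months. Only the 1-month arrays and the first 3-month array exceeded the pooled median. Col8a2 passed the filter through them, so the direction of these falls was partly set in advance.

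Col14a1 in cTEC went from 7.42 and 8.42 to 6.82 and 6.65, then to 6.01 and 5.79 (6 minus 1 month -2.02 ± 0.38, adjusted p = 0.00165). Col5a1 went from 8.84 and 8.56 to 7.22 and 7.66, then to 6.63 on both arrays (-2.07 ± 0.49, adjusted p = 0.0116). For both genes each age lay below the one before it without overlap. Col17a1 (-1.76 ± 0.37), Col13a1 (-1.20 ± 0.23) and Col18a1 (-0.90 ± 0.27, adjusted p = 0.0414) also fell. The collagen median was -0.23 and that of all genes -0.07. The 3′ minus 5′ signal of the control transcripts, a measure of RNA integrity, was 2.43 and 2.63 on the cTEC arrays of 1 month and 1.94 to 2.04 on those of 3 and 6 months, and its part in the result was not tested. Mural markers in cTEC were lower at 6 months for 2 of 10 genes (median -0.15). Without the first cTEC array of 1 month 3 genes were called, and also 3 without the second cTEC array of 6 months.

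At 3 months in cTEC, Col8a2 and Col13a1 were lower (3.88% of all genes) and Col16a1 was higher (1.52%). Col13a1, another transmembrane collagen, went from 6.70 and 6.23 to 5.75 and 5.31. Col16a1 read 7.49 and 7.60 at 1 month, 8.83 and 8.71 at 3 months and 7.56 and 7.06 at 6 months, so that only the middle age was high (1.23 ± 0.36, adjusted p = 0.0436). Thymocyte markers in cTEC were lower at 3 months for 5 of 13 genes (median -1.65), and neither Col13a1 nor Col16a1 was called with their level as a covariate. Without the first cTEC array of 1 month 1 gene was called, and without either fibroblast array of 6 months, which share the estimate of the spread, 7 were.

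In mTEClo, Col3a1 was the 1 collagen gene that was higher at 6 months (2.55% of all genes). It read 8.05 and 7.71 at 1 month, 9.57 and 10.54 at 3 months, and 10.90 and 10.93 at 6 months, an 8.19-fold rise (3.03 ± 0.62, adjusted p = 0.00296) with no overlap between 1 month and the later ages. Its other probe set read lower but rose too, from 3.59 and 3.29 to 5.75 and 5.13 (2.00, adjusted p = 0.0111 over 25610 probe sets). Fibroblast markers in mTEClo at 6 months were higher for 0 of 8 genes and lower for 1, with a level of 6.33 and 6.53 at 1 month and 5.97 and 6.08 at 6 months. Between the same ages 1 of 6 epithelial markers was lower (level 10.16 and 10.34, then 9.64 and 9.79), as was 1 of 3 cartilage markers (7.55 and 7.71, then 6.37 and 6.58). The 3′ minus 5′ signal was 2.62 and 2.73 at 1 month and 1.84 and 1.98 at 6 months. The part of these shifts in the changes of Col3a1, Col6a4 and Col9a3 was not tested.

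Col5a2, the neighbour of Col3a1 in the genome, read 9.40 and 9.69 at 1 month and 11.04 and 10.72 at 6 months in mTEClo, which was not called (1.34 ± 0.47, adjusted p = 0.0904). Its other probe set went from 6.78 and 7.04 to 9.21 and 8.94 (2.16, adjusted p = 0.0038 over the probe sets). Col6a4, a further type VI chain, fell from 7.69 and 7.54 to 6.24 and 6.35 (-1.32 ± 0.38, adjusted p = 0.0354) and Col9a3 from 6.94 and 6.75 to 5.69 and 6.07 (-0.96 ± 0.18, adjusted p = 0.00149), where 3.87% of all genes were lower. The call of Col6a4 was lost without any 1 of the mTEClo arrays of 1 and 6 months, and that of Col9a3 without the first of 6 months. Leaving out a fibroblast array of 6 months also moved the number of collagen genes called. At 3 months Col8a1 rose from 6.05 and 5.66 to 6.99 and 8.27 (1.78 ± 0.33, adjusted p = 0.00361; 0.621% of genes rose and 1.15% fell), with a wide gap between the 3-month arrays. It was not called without the second mTEClo array of 1 month or of 3 months, and without either fibroblast array of 6 months 3 genes were called.

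No collagen gene was called in mTEChi at 3 months (0% of genes in either direction; 0 passed an unadjusted p under 0.05) or at 6 months (6.17% of genes higher and 3.34% lower; 7 collagens passed unadjusted). Without either fibroblast array of 6 months 3 collagens were called in mTEChi at 6 months, 2 without its own first array and 1 without its second or without the first of 1 month. In Sirpa- DC limma called 0 at 3 months (0.0138% higher and 0.0207% lower; 2 unadjusted) and 0 at 6 months (0.538% and 0.366%; 4 unadjusted). In Sirpa+ DC it called 0 at 3 months (0.138% and 0.193%; 1 unadjusted) and 0 at 6 months (1.35% and 0.717%; 2 unadjusted). The percentages refer to adjusted calls, and the shares of all genes that passed unadjusted are not given here.

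In fibroblasts many collagen genes were lower with age. At 3 months 14 of 34 were lower than at 1 month and 0 higher (10.4% of all genes were lower and 10.1% higher), and at 6 months 20 were lower and 0 higher (20.4% and 15.8%). By class, 7 of 8 fibrillar, 4 of 7 basement membrane and 9 of 19 other genes were lower at 6 months. The median log2 difference of the 34 genes was -0.83 at 3 months and -1.36 at 6 months, and that of all genes was -0.02 and -0.07. At 3 months 4 genes were called without the first fibroblast array of 1 month and 5 without the second of 3 months. With the thymocyte marker level as a covariate 7 were called lower and 0 higher (5.81% and 6.93% of all genes).

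Col1a2 in fibroblasts read 14.05 and 13.66 at 1 month, 12.65 and 12.02 at 3 months, and 11.95 and 9.66 at 6 months. Col1a1 read 10.54 and 10.79, then 9.31 and 9.44, then 8.54 and 5.84, and Col6a3 read 13.08 and 12.46, then 11.54 and 11.38, then 11.01 and 8.57. For all 3 genes each age lay below the one before it without overlap, and the second 6-month array lay far below the first. The differences of 6 against 1 month were -3.05 for Col1a2, -3.48 ± 0.43 for Col1a1 and -2.98 for Col6a3. Without the second 6-month array they were -1.90, -2.13 and -1.76, and all 3 were still called.

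The largest fall was that of Col14a1, from 10.01 and 9.30 to 7.88 and 7.65, then to 6.03 and 4.76 (6 minus 1 month -4.25 ± 0.38). Col5a3 followed, from 11.12 and 9.94 to 8.75 and 8.21, then to 7.52 and 5.86 (-3.84 ± 0.36). Col15a1 read 12.32 and 11.18, then 9.84 and 8.61, then 9.80 and 6.23, so that its 6-month arrays overlapped those of 3 months (-3.73 ± 0.60). The type IV pair fell as well, Col4a1 from 13.11 and 12.52 to 10.62 and 9.24 (-2.88, and -2.19 without the second array) and Col4a2 from 11.84 and 10.68 to 8.80 and 7.37 (-3.17 and -2.46).

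Without the array that stood apart, the median over the 34 genes at 6 months was -0.94, against -0.09 over all genes. Col14a1 was then at -3.62, Col5a3 at -3.01, Col1a1 at -2.13 and Col15a1 at -1.95. Col3a1 was no longer called (-1.05, adjusted p = 0.238, against -2.45 ± 0.62 and 0.00353 with it), and Col2a1, Col7a1, Col8a1, Col16a1 and Col19a1 were also lost. Thymocyte markers moved the other way in the same arrays, with 8 of 13 higher at 6 months (median 1.29) and a mean level of 8.90 and 10.4 at 1 month against 10.8 and 11.1 at 6 months. With that level as a covariate 14 collagen genes were called lower (8.92% of all genes) and 0 higher (4.89%). The same 6 were lost, and Col14a1 stood at -4.10 against -4.25 without the covariate. Of the lost genes Col3a1 stood at -2.02 (adjusted p = 0.0836), Col16a1 at -0.91, Col8a1 at -0.84, Col2a1 at -0.79, Col19a1 at -0.59 and Col7a1 at -0.52. With both 6-month arrays and no covariate, fibroblast markers were lower for 8 of 8 (median -2.22) and mural markers for 9 of 10 (median -1.28). Without the array that stood apart fewer genes of each list were called, and these medians were -0.88 and -1.08. The 3′ minus 5′ signal of the control transcripts had group means of 2.76, 2.11 and 1.79 at 1, 3 and 6 months, and its part in the result was not tested.

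The 7 collagens called highest in fibroblasts were all lower at 6 months, with a median of -3.18. Without the array that stood apart 6 of the 7 were called and the median was -1.95, and with the thymocyte covariate 6 were called with a median of -2.80; Col3a1 was the gene lost in both. With all arrays, the other 406 genes called highest in fibroblasts had a median of -0.17, with 189 lower and 164 higher. The 406 were not split by cell type. Thymocyte markers such as Themis also had their highest mean in the fibroblast arrays (10.2, next cTEC at 7.36), and that list rose (median 1.29). The fibroblast markers had a median of -2.22, so -0.17 does not describe fibroblast genes alone. The difference of 6 against 1 month was lower in fibroblasts than in the mean of the 3 epithelial populations for 19 collagen genes and higher for 0 (15.4% and 11.4% of all genes). The median of this difference over the 34 tested genes was -1.42, and -0.83 without the array that stood apart. Over all genes it was -0.02 and -0.03. With the thymocyte covariate 7 collagen genes were lower and 0 higher (2.22% and 0.738% of all genes). For Col3a1 the difference was -3.82, with -2.45 in fibroblasts and 1.37 in epithelium, and without that array it was -2.42 (adjusted p = 0.0193). For Col5a2 it was -3.77, with -3.18 and 0.59, and without the array -2.54.

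**Figure D4:**
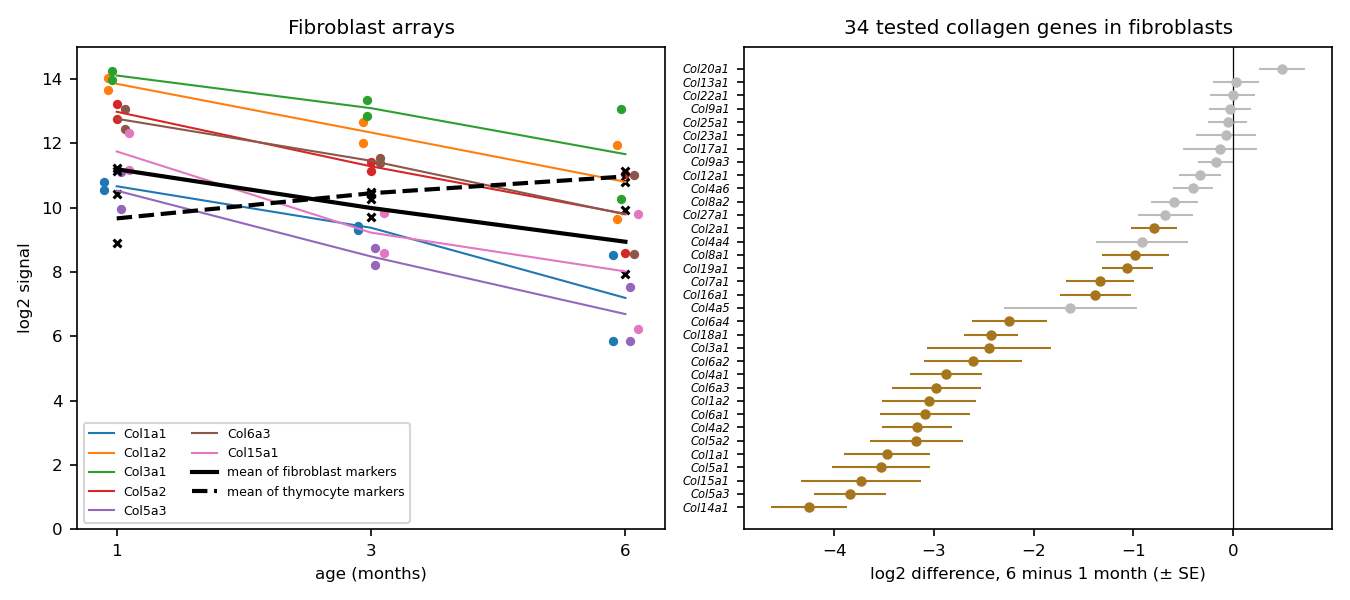
Left, log2 signal of the 7 fibroblast-highest collagens on the fibroblast arrays by age, with lines through the means of 2 arrays, beside the mean of the fibroblast markers (solid black) and of the thymocyte markers (dashed). Right, log2 difference of 6 against 1 month (± SE) for the 34 tested genes, with the 20 called lower in brown, from Col14a1 at -4.25 to Col2a1 at -0.80.

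Genes that handle collagen were read from 3 lists. Of 18 tested genes for folding and modification of the chains in the endoplasmic reticulum, fibroblasts had 3 higher than epithelium (8.68% of all genes were) and 0 lower (13.7%; list median 0.69), led by Plod1, a lysyl hydroxylase (2.71 ± 0.20). Epithelium had 5 higher than DC (15.9% of all genes) and 1 lower (8.60%; median 0.24), led by the lysyl hydroxylase Plod2 (4.37 ± 0.10) and the collagen chaperone Serpinh1 (4.09 ± 0.16). In mTEChi 4 were lower than in mTEClo (7.81% of all genes) and 0 higher (11.8%; median -0.29), among them Plod2 (-2.76 ± 0.15) and Serpinh1 (-2.01 ± 0.24). In fibroblasts 12 were lower at 3 months (10.4% of all genes; median -1.10) and 16 at 6 months (20.4%; median -1.45), with 0 higher at either age (10.1% and 15.8%). Without the array that stood apart 13 were lower at 6 months (8.98% of all genes; median -1.13). Serpinh1 fell by 3.62 ± 0.42 (adjusted p = 1.32e-06) and by 2.34 without that array, and the prolyl hydroxylase P4ha2 changed by -3.06 and -2.16.

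Of 9 tested genes for processing and crosslinking outside the cell, 3 were higher in fibroblasts than in epithelium (8.68% of all genes) and 0 lower (13.7%; list median 0.13): Pcolce, which enhances procollagen cleavage (3.72 ± 0.24), Sparc (1.75) and the crosslinking enzyme Loxl1 (1.25). Lox, the lysyl oxidase, was lower in mTEChi than in mTEClo (-3.47 ± 0.24, adjusted p = 5.1e-12), as was Sparc (-2.07 ± 0.16), where 7.81% of all genes were lower and 11.8% higher. The list had 0 higher and a median of -0.07. In fibroblasts 7 were lower at 3 months (median -1.09; 10.4% of all genes) and 8 at 6 months (median -2.55; 20.4%), with Loxl1 at -3.22, Pcolce at -3.06, the procollagen protease Bmp1 at -2.73 and Sparc at -2.57. Without the array that stood apart 8 were lower (median -1.82; 8.98% of all genes), with these genes at -2.51, -1.82, -2.19 and -2.18.

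Of 7 tested receptors and uptake genes, the fibrillar collagen receptor Ddr2 (2.43) and the uptake receptor Mrc2 (2.90) were higher in fibroblasts than in epithelium, and Ddr1 was lower (-2.67), against 8.68% and 13.7% of all genes. Ddr1 (2.87) and Itga1 (2.10), an integrin chain that binds collagen, were higher in epithelium than in DC, and the inhibitory receptor Lair1 was lower (-3.37), against 15.9% and 8.60% of all genes. Between the DC populations, in which no collagen was called, Ddr1 (2.49 ± 0.31) and Lair1 (2.41 ± 0.29) were higher in Sirpa+ DC, where 3.87% of all genes were. The Ddr1 arrays overlapped, with means of 6.88 ± 1.62 in Sirpa- DC and 9.37 ± 0.31 in Sirpa+ DC (SD, n = 6). Macrophage markers were higher in Sirpa+ DC for 5 of 6 genes (median 2.74) and epithelial markers for 1 of 6 (median 0.62; level 6.71 to 7.26 against 6.18 to 6.79), and their part in these differences was not tested. In fibroblasts 4 of the 7 were lower at 6 months, Mrc2 (-3.88), Itga1 (-2.54), Ddr2 (-1.78) and Ddr1 (-1.73), where 20.4% of all genes were lower. Without the array that stood apart 2 were lower (8.98% of all genes), Mrc2 (-2.87) and Itga1 (-1.44), while Ddr2 was at -0.68 (adjusted p = 0.0963) and Ddr1 at -1.20 (adjusted p = 0.213).

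Probe sets of 1 gene did not all read alike. In 27 of the 42 genes more than 1 probe set was present, 40 in all beside those used, and 22 of these passed the filter. The second probe set of Col3a1 was high in fibroblasts, at 11.49, 11.29, 9.29, 9.03, 8.87 and 5.93, but read only 3.18 to 5.75 in epithelium, so that epithelium minus DC was 0.39 (adjusted p = 0.0657) against 3.57 for the probe set used. A second probe set of Col12a1, a collagen of fibre surfaces, read 7.25 to 9.77 in epithelium, 4.23 to 5.04 in DC and 4.96 to 5.95 in fibroblasts (epithelium minus DC 3.95 ± 0.11, adjusted p = 3.3e-21), while the probe set used had population means of 6.42 to 7.65. The further probe sets of Col12a1 read 3.43 to 4.46 over all arrays. On another probe set of Col9a1, mTEChi read 7.84 to 8.75 and mTEClo 5.10 to 6.10 (2.55 ± 0.16, adjusted p = 1.01e-12).

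A probe set of Col22a1 was read in the medullary populations, at 7.18 to 7.89 in mTEChi and at or below 5.23 outside the medulla. In mTEClo it read 7.95 and 7.66 at 1 month, 6.62 and 5.26 at 3 months, and 5.54 and 6.11 at 6 months (6 minus 1 month -1.98, adjusted p = 0.00012). A further probe set of Col22a1 read 4.47 to 5.89 over all arrays. These 4 genes were chosen after their values were seen, and which probe set reports the transcript was not tested.

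**Figure D5:**
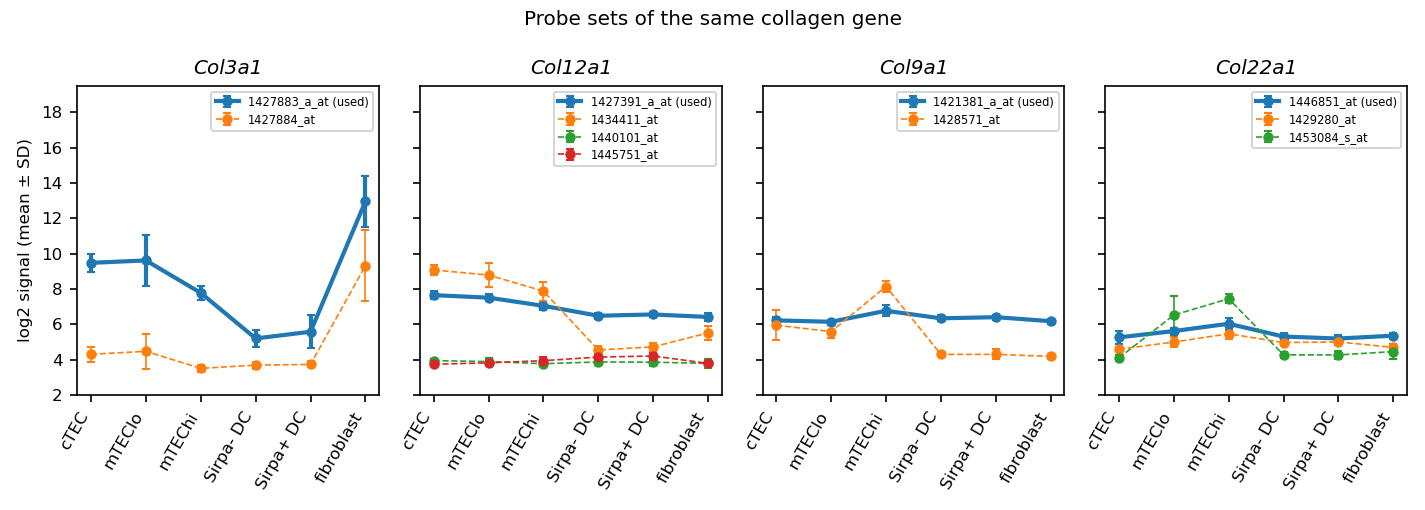
Mean log2 signal (± SD, 6 arrays) by population for every probe set of 4 collagen genes, with the one used as a solid line. Other probe sets of Col12a1, Col9a1 and Col22a1 separate epithelium or medulla from the remaining populations more than the one used.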

How the data were processed

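RNA of 36 sorted samples was hybridised to Affymetrix whole-genome mouse arrays after Trizol extraction, amplification and biotin labelling, per the labels and the series' design text. The authors deposited log2 signals per probe set. The series' design text names Gene Expression Commons for normalisation, and the submitters' processing notes name GCRMA. No version is given in the sources used here. Log base 2 was inferred from how far the values range, and no further scaling was applied. Of the 45101 probe sets, 64 controls, 932 with several symbols and 9160 with none were left out, and 34945 had a single symbol.

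A limma model (R 4.3.3, limma 3.58.1) with 18 group means, an intensity trend and 18 residual degrees of freedom was fitted to all 14497 genes that passed the filter, with Benjamini-Hochberg adjustment over them, and was tested on simulated data. Probe sets other than those used were tested in a fit over 25610 probe sets. Precision is limited by the number of arrays. The collagen genes and all gene lists were chosen with earlier results of these data known. Every collagen gene could be named; values were given for up to 8 members a class with the largest range of population means among called members, for up to 5 members called each way per age contrast, for the type IV pairs, and for up to 4 called members of each pathway list per contrast. Lck and Tcf7 of the thymocyte list were not analysed here, nor were Fkbp10, Adamts2, Adamts14, Loxl2 and Itga11 of the pathway lists. Deviations of same-numbered arrays correlated at -0.07 to 0.42 over 15 pairs of populations at each of 3 ages, and 4, 10 and 3 of these pairs passed 0.1 at 1, 3 and 6 months, so the numbers were not taken as pairing. Alternatives were the mean of all probe sets, no filter, quantile normalisation, equal medians, no trend, a replicate block, a thymocyte covariate and leaving out each array. The 1-month arrays alone and the probe set of largest variance were added after seeing the data. Promoter sequences are RefSeq's.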

Additional observations from a re-analysis of the deposited data

Results flagged for a closer look

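For 19 collagen genes the log2 change from 1 to 6 months differed between fibroblasts and the mean of the 3 epithelial populations, tested as an interaction in limma. The change was lower in fibroblasts for each of the 19, where 15.4% of all genes were lower and 11.4% higher. With the thymocyte covariate 7 were still called (2.22% of all genes were lower): Col14a1, Col18a1, Col1a1, Col4a1, Col4a2, Col5a2 and Col5a3. Among those lost were Col3a1 (-3.21, adjusted p = 0.0698) and Col15a1 (-2.98, adjusted p = 0.0783). Without the covariate the difference among the fibrillar genes was -3.82 ± 0.72 (SE) for Col3a1 (adjusted p = 0.000472), -3.77 for Col5a2, -3.36 for Col5a3 (adjusted p = 8.3e-06), -3.08 for Col1a1, -2.63 for Col5a1 and -2.50 for Col1a2. Among the basement membrane genes it was -3.64 for Col15a1, -2.98 for Col4a2, -2.82 for Col4a1, -2.16 for Col18a1 and -2.09 for Col4a5 (adjusted p = 0.0467).

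For type VI chains it was -3.002 for Col6a1, -2.62 for Col6a3, -2.50 for Col6a2 and -1.54 for Col6a4. The others were Col14a1 (-3.28, adjusted p = 1.95e-05), Col7a1 (-1.46), Col8a1 (-1.24) and Col19a1 (-0.91, adjusted p = 0.0243). Only Col3a1 (1.37), Col5a2 (0.59), Col4a5 (0.46), Col8a1 (0.26) and Col7a1 (0.12) had an epithelial change above 0. The fibroblast group of 6 months includes the array that stood apart. Without it the median difference over the 34 tested genes was -0.83, against -0.03 over all genes. Col14a1 was then at -2.64, Col5a2 at -2.54, Col5a3 at -2.53, Col3a1 at -2.42, Col4a2 at -2.27, Col4a1 at -2.13, Col15a1 at -1.85, Col1a1 and Col6a1 at -1.73, Col18a1 at -1.51, Col6a3 at -1.40 and Col5a1 at -1.23. Those no longer called were Col1a2 (-1.35, adjusted p = 0.0654), Col7a1 (-1.30), Col6a2 (-1.14), Col8a1 (-0.92), Col6a4 (-0.73), Col19a1 (-0.61) and Col4a5 (-0.12).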

How the results depend on the processing

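No called value reversed under any alternative. Of 116 called values, 116 kept their call without the intensity trend, 115 without the filter, 114 with equal array medians, 112 with quantile normalisation and 78 with the thymocyte covariate. With the mean of all probe sets 101 of 115 kept it, with the probe set of largest variance 112 of 115, and with the 1-month arrays alone 41 of 50. Under the replicate block no called value was lost, and the count in cTEC at 3 months went from 3 to 5. With the mean of all probe sets 1 gene was highest in cTEC, 3 were lower in cTEC than in mTEC and 2 were called in mTEClo at 3 months. With the probe set of largest variance 2 genes were highest in mTEClo (Col19a1 and Col8a1), 7 were lower in fibroblasts than in epithelium and 2 were called in mTEClo at 3 months. With the 1-month arrays alone 1 gene was highest in mTEChi, 12 in fibroblasts, 2 were lower in fibroblasts than in epithelium and 3 lower in cTEC than in mTEC.

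With the thymocyte covariate 1 gene was highest in cTEC, 1 in mTEChi and 4 in fibroblasts. Under the same covariate 1 gene was lower in fibroblasts than in epithelium, 1 was lower in cTEC than in mTEC, 1 was called in cTEC at 3 months, 2 in mTEClo at 3 months, 1 in mTEChi at 6 months and 7 in fibroblasts at 3 months. The interaction with age then held 7. The cause of these moves was not tested.

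Leaving out each of the 36 arrays in turn gave 1 to 2 genes highest in cTEC, 0 to 1 in mTEClo, 1 to 7 called in cTEC at 3 months, 3 to 7 in cTEC at 6 months and 0 to 3 in mTEClo at 3 months. In mTEClo at 6 months it gave 1 to 5, in mTEChi at 6 months 0 to 3, in fibroblasts 4 to 17 at 3 months and 14 to 22 at 6 months, and in the interaction 12 to 21. Over these fits 4054 of 4176 called values kept their call and 122 did not. Col4a5 in the interaction was lost in 30 of the 36 fits, Col16a1 in cTEC at 3 months in 14 and Col6a3 in cTEC against mTEC in 8. With 2 arrays per population and age, and signals near the pooled median for many chains, small changes were not detectable.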
